A study of Glycine max with 12 samples.

Results

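Genes annotated with nutrient reservoir activity were followed in roots of soybean (Glycine max, cultivar Williams 82) grown with or without cadmium (Cd) and with or without Oceanobacillus picturae (OP), a bacterium named in the series title. The genes were those whose Gene Ontology column holds the nutrient reservoir term, leaving out the vegetative storage protein gene VSPB, and they came to 102 of 49128 genes in the deposited table. The 4 groups, of 3 root libraries each, were cadmium with the bacterium (Cd+OP), cadmium alone (Cd), the bacterium without cadmium (control+OP), and untreated roots (control). All 12 libraries share the cultivar and the tissue. A dose label of 70 mg/L Cd stands on every sample, the controls included, so the dose could not be tied to a group. No label used here states plant age, exposure time or the way of inoculation. Nothing in the labels ties a group's libraries to separate plants, so a p-value reflects only how far these libraries vary, which may be technical.

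Nutrient reservoir proteins hold amino acids and other nutrients for later use, and the best known are the glycinins and other globulins that fill the protein bodies of soybean seeds. The globulins share the cupin fold with the germins and germin-like proteins, which are secreted into the cell wall space, bind manganese, and in several plants have oxalate oxidase or superoxide dismutase activity. Vegetative storage proteins, a separate family related to acid phosphatases, accumulate in soybean leaves and pods and are known as jasmonate-responsive genes.

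The annotation split the 102 genes in a way that the nutrient reservoir term did not set. Manganese binding was annotated for 61 genes, and all 61 also carried apoplast and extracellular region terms, which is the annotation pattern of germin-like proteins. The apoplast term was carried by 0.574% of all genes in the table. Of the 61 genes, 8 carried plasmodesma and root development terms as well. In Arabidopsis, germin-like proteins at plasmodesmata are known to affect root growth. A further 14 genes were acid phosphatase genes or VSPA, the alpha vegetative storage protein, and none of them carried the apoplast term. The remaining 27 genes are called other storage genes here. They include the glycinin genes GY1 and GY3 and the gene BG, and 14 of them carried a vacuole term. The protein storage vacuole term stood on 25 of these 27 genes and also on all 61 manganese-binding genes, against 0.177% of all genes. It therefore does not part the manganese-binding genes from the other storage genes. In the acid phosphatase group 0 of 14 carried it. The table describes the manganese-binding members as hypothetical proteins and names none of them as a germin, so they are called manganese-binding below.

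Members often lay side by side: 57 of the 102 formed 21 runs in which neighbours were less than 200 kb apart. Manganese-binding genes were short, with a median span of 1067 bp (lowest 621, highest 2682). The acid phosphatase group had a median span of 2999 bp and the other storage genes 2672 bp. Related neighbours may share reads, and the way reads were counted is not stated in the sources used, so separate values within a run are uncertain.

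Total counts were 49904227 to 57693211 per library, and within each group the log2 levels of any pair of libraries had a Pearson correlation of 0.992 to 0.994 across genes. Root endodermis genes (Casparian strip term) summed to 126 to 133 FPKM in Cd+OP, 98.1 to 101 in Cd, 131 to 139 in control+OP and 128 to 134 in control, but most of each sum was 1 gene, GLYMA_12G210400, at means of 93.4, 98.1, 108 and 98.3 FPKM in the same group order. Of the 10 tested Casparian strip genes, 9 were lower in Cd than in control, with a median log2 fold change of -4.69 and the lowest at -9.57, so in Cd roots the marker level rested on that gene. Seed remnant genes (34 oil body genes) summed to 125 to 126 FPKM in Cd+OP, 85.9 to 91.5 in Cd, 264 to 278 in control+OP and 101 to 109 in control. Much of the control+OP sum was 1 gene, GLYMA_20G192700, at 134 FPKM. Green tissue genes (137 genes) summed to 103 to 107, 58.8 to 60.1, 142 to 148 and 220 to 235 FPKM in the same group order. Oxygen carrier genes, listed here for nodules, summed to 399 to 422, 349 to 355, 452 to 491 and 756 to 832 FPKM. Outside control+OP, much of these sums was GLYMA_11G121800, at means of 331, 218, 92.1 and 647 FPKM in the same group order. In control+OP against control that gene changed by -2.81 on the log2 scale. Of the 8 tested oxygen carriers 4 were higher there, by up to 7.62, and 4 lower (median log2 fold change 3.0). The sum does not follow the list as a whole and was not read as nodule tissue. Sums of both seed and green tissue genes were lowest in Cd roots, and their part in the results below was not tested. In bulk roots, fewer cells of a type and less RNA per cell cannot be told apart.

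The summed level of the 102 genes was lowest in Cd roots, below every library of the other groups. In FPKM (fragments per kilobase of transcript, scaled by the authors to library size), the sum was 960, 965 and 975 in Cd+OP, 413, 430 and 430 in Cd, 1099, 1078 and 1055 in control+OP, and 920, 853 and 880 in control. The 4 groups did not overlap. As a share of all counts, the members held 0.1175 to 0.1198% in Cd+OP, 0.05014 to 0.05179% in Cd, 0.1374 to 0.1413% in control+OP and 0.1084 to 0.1114% in control. The 10 most abundant members held 64.9% of the summed level.

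The order of the treatments by summed level differed between annotation groups, and single genes or runs weighed heavily on it. Manganese-binding genes averaged 682 ± 8.48 FPKM in Cd+OP, 290 ± 7.37 in Cd, 648 ± 12.6 in control+OP and 655 ± 28.5 in control (SD, n = 3 each), so that Cd stood far below the rest. Control overlapped both Cd+OP and control+OP, while every Cd+OP library was above every control+OP library. Most of the gap between Cd and control lay in 2 runs of neighbours. The chromosome 16 run from 5953190 to 5996853 averaged 86.4 FPKM in Cd and 261 in control. The chromosome 7 run from 3183290 to 3223373 averaged 9.78 and 167. Of the 29 tested manganese-binding genes, 15 were lower and 12 higher in Cd than in control. The acid phosphatase group averaged 221 ± 2.07 FPKM in Cd+OP, 113 ± 1.23 in Cd, 356 ± 9.80 in control+OP and 173 ± 6.17 in control (SD, n = 3 each), and here control+OP was the highest. That place rested on 1 gene, GLYMA_08G200200, at means of 42.6, 1.92, 180 and 17.3 FPKM in the same group order. Of the 11 tested genes of the group, 6 had their highest mean in control+OP, 3 in Cd+OP and 2 in Cd. The other storage genes averaged 64.0 ± 2.96, 20.8 ± 1.53, 73.4 ± 0.549 and 57.1 ± 2.52 FPKM in the same group order. Outside Cd, much of these sums was GLYMA_08G127600, at means of 29.6, 3.18, 43.4 and 32.2 FPKM in that order.

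**Figure D1:**
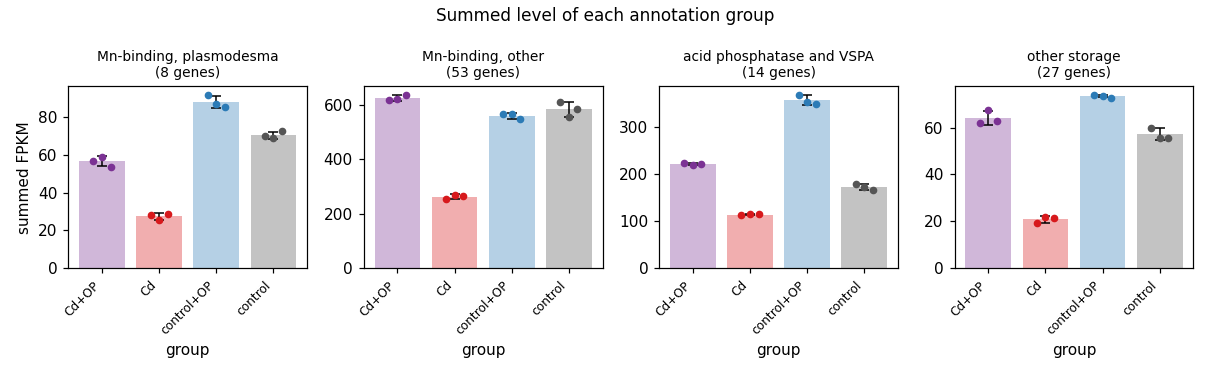
Summed FPKM of each annotation group by treatment (bars, mean; error bars, SD of 3 libraries; points, libraries). Cd bars are the lowest in all 4 panels, and the acid phosphatase group reaches 356 FPKM in control+OP, against 173 FPKM in control. Most of that rise is 1 gene, GLYMA_08G200200, at means of 180 and 17.3 FPKM.

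Most members were scarce in roots. Of the 102, 44 had a mean of at least 1 FPKM over the 12 libraries and were tested, and 58 did not. Of the 58, 3 genes were at 0 in all libraries (GLYMA_10G168800, GLYMA_19G222800 and GY1), 55 were above 0, and 12 of these reached 1 FPKM in some library, the highest being GLYMA_20G119800 at 2.10 FPKM. Tested genes were 29 of 61 manganese-binding, 11 of 14 acid phosphatase and 4 of 27 other storage genes. GY3, the other glycinin gene, had 11, 0 and 12 counts in Cd+OP, 0 in all 3 Cd libraries, 0, 4 and 0 in control+OP, and 0 in all 3 control libraries. BG, annotated as an aspartic-type endopeptidase, was at 0.129 to 0.230 FPKM in Cd+OP, 0.121 to 0.155 in Cd, 0.416 to 0.475 in control+OP and 0.184 to 0.305 in control. Both genes were under 1 FPKM in every library. A member with a high level in a single group could pass the mean through that group alone, so the counts over the 44 describe them and support no statement on all 102.

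Across the 44 tested members, Cd roots most often had the lowest group mean, in 25 genes (56.8%), against 36.9% of all 30340 tested genes. Cd+OP had the lowest mean in 2 members (4.55%, against 11.2% of all tested genes), control+OP in 4 (9.09%, against 28.9%) and control in 13 (29.5%, against 22.9%). The highest mean stood in Cd+OP for 14 members (31.8%, against 21.7%), in Cd for 6 (13.6%, against 32.6%), in control+OP for 14 (31.8%, against 29.1%) and in control for 10 (22.7%, against 16.6%).

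**Figure D2:**
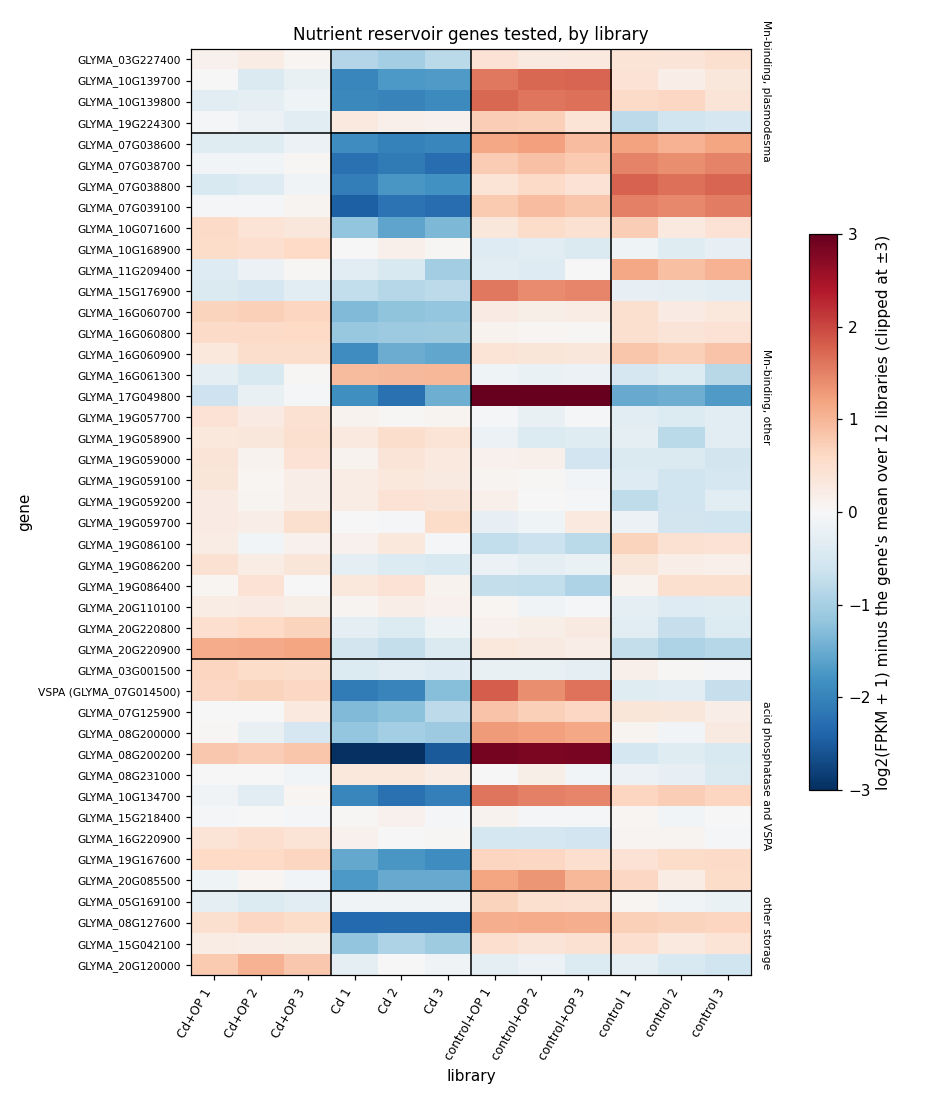
Each row is a tested member and each column a library, coloured by log2(FPKM + 1) minus the gene's mean over the 12 libraries. Cd columns are blue for most of the chromosome 7 run and the acid phosphatase group, and GLYMA_17G049800 and GLYMA_08G200200 are darkest red in control+OP.

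Cadmium alone lowered more members than it raised. With edgeR's quasi-likelihood test and Benjamini-Hochberg adjustment over all tested genes, 25 of 44 members were lower in Cd than in control at an adjusted p under 0.05, 14 were higher and 5 were not called (did not pass). Over all tested genes 38.7% were lower and 37.6% higher (76.2% called), so a call by itself sets no gene apart. That near balance of all genes leaned further towards lower without any 1 library of Cd or control (9931 to 10047 higher and 12013 to 12161 lower). It did so too at a mean of at least 5 FPKM (6020 higher and 7181 lower). Median log2 fold change was -1.04 over the members and 0.00 over all tested genes. By group, 15 of 29 manganese-binding genes fell and 12 rose, 8 of 11 acid phosphatase genes fell and 1 rose, and 2 of 4 other storage genes fell and 1 rose.

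With the bacterium added under cadmium, more members were higher than lower. In Cd+OP against Cd, 30 of 44 members were higher, 5 lower and 9 not called by edgeR, where 36.4% of all tested genes were higher and 34.6% lower (71.0% called). Median log2 fold change was 1.14 over the members, beside 0.00 over all tested genes. The count of higher genes was 18 of 29 among manganese-binding genes, 9 of 11 in the acid phosphatase group and 3 of 4 among the other storage genes. This comparison and the one before it share the Cd libraries.

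Without cadmium the bacterium split the members. In control+OP against control, 22 were higher, 13 lower and 9 not called by edgeR, beside 34.6% higher and 27.2% lower among all genes (61.8% called). That surplus of higher genes turned round without any 1 library of Cd or control (8391 to 9177 higher and 8744 to 9387 lower), with no filter (10016 and 10096) and at a mean of at least 5 FPKM (5668 and 5826). Median log2 fold change was 0.37, against 0.06 over all tested genes. Manganese-binding genes were 13 higher and 11 lower, and acid phosphatase genes 7 higher and 2 lower.

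The members' median change was near 0 when Cd+OP roots were set against either group without cadmium. Against control+OP, 13 members were higher and 19 lower, with a median of -0.10, beside 33.6% and 33.1% of all genes (66.7% called). The annotation groups differed there. All 4 tested plasmodesma genes were lower (median -1.66), and the acid phosphatase group had 2 higher and 6 lower (median -0.73). The other manganese-binding genes had 10 higher and 6 lower (median 0.20), and the other storage genes 1 and 3 (median -0.49). Against control, 20 were higher and 17 lower, with a median of 0.04, beside 30.2% and 29.3% (59.5% called). The balance of all genes against control turned with median-of-ratios scaling (8741 higher and 9293 lower) and with DESeq2 (8814 and 9442). It also turned without any 1 library of Cd or control (7288 to 7978 higher and 9527 to 10275 lower). The test of the difference itself, the interaction of Cd and OP (the cadmium change with OP minus the cadmium change without it), was positive for 29 members and negative for 10 by edgeR, beside 33.4% and 30.4% of all genes (63.9% called). Its median was 1.11 over the members and 0.01 over all tested genes.

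**Figure D3:**
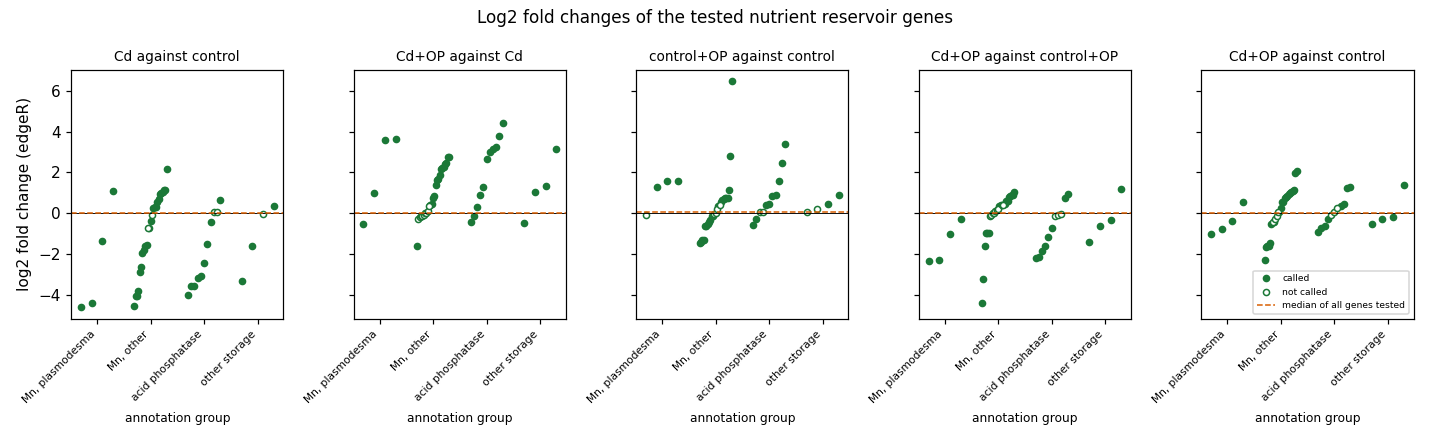
Log2 fold changes (edgeR) of the 44 tested members in 5 comparisons, by annotation group (filled, called at an adjusted p under 0.05; open, not called; dashed line, median of all tested genes). Most points lie below 0 in Cd against control and above 0 in Cd+OP against Cd.

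Genes with related annotations, members left out, were counted the same way. Of 13 tested superoxide dismutase genes, 2 were higher and 5 lower in Cd than in control, and 7 were higher and 3 lower in Cd+OP than in Cd. Their sum was 562 to 571 FPKM in Cd+OP, 348 to 359 in Cd, 671 to 698 in control+OP and 380 to 406 in control. Of 25 tested manganese-binding genes without the nutrient reservoir term, 7 were higher and 13 lower in Cd than in control, with a median of -0.25, and 9 were higher and 7 lower in Cd+OP than in Cd, with a median of 0.03. Of 125 tested apoplast genes, 30 were higher and 85 lower in Cd than in control (median -1.18), and 85 were higher and 31 lower in Cd+OP than in Cd (median 0.87). No gene outside the members carried one of the oxalate terms searched, and the single gene with a protein storage vacuole term outside them, GLYMA_20G187700, averaged 6.94, 6.75, 7.11 and 6.83 FPKM in Cd+OP, Cd, control+OP and control.

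Among the manganese-binding genes, the most abundant was GLYMA_16G060800 (chromosome 16, 5956877 to 5957946, plus strand, in the coordinates of the deposited table, with the genome build not stated there). Its level was 167, 167 and 169 FPKM in Cd+OP, 50.2, 51.6 and 52.7 in Cd, 121, 117 and 115 in control+OP, and 157, 147 and 151 in control. Cd libraries were far below all others, and no 2 groups overlapped. Its log2 fold change was -1.56 ± 0.03 (SE) in Cd against control (edgeR adjusted p = 8.24e-23) and 1.63 ± 0.03 in Cd+OP against Cd (edgeR adjusted p = 4.43e-23). Between Cd+OP and control it was 0.07 ± 0.03, with an edgeR adjusted p of 0.0499 that passed 0.05 in few of the alternative settings.

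The neighbouring GLYMA_16G060700 (5953190 to 5954298, minus strand) was also lowest in Cd. It was at 91.3, 93.8 and 88.9 FPKM in Cd+OP, 22.0, 24.0 and 25.0 in Cd, 67.7, 64.0 and 67.1 in control+OP, and 79.8, 68.1 and 71.1 in control. The log2 fold change was -1.62 ± 0.05 in Cd against control and 1.88 ± 0.05 in Cd+OP against Cd (edgeR adjusted p = 1.16e-19 and 6.99e-21). A further gene of the run, GLYMA_16G060900, was also lower in Cd (log2 fold change -2.62 ± 0.09), and was chosen for mention after its values were seen. The last tested gene of the run moved the other way. GLYMA_16G061300 (5990715 to 5991771, minus strand) was at 1.76, 1.44 and 2.42 FPKM in Cd+OP, 5.44, 5.57 and 5.66 in Cd, 2.07, 1.91 and 1.95 in control+OP, and 1.34, 1.49 and 0.873 in control. Cd libraries were above all others, by a log2 fold change of 2.16 ± 0.22 against control (edgeR adjusted p = 2.10e-09), and Cd+OP was lower than Cd by -1.63 ± 0.21 (edgeR adjusted p = 1.64e-07). Its rise in control+OP over control (0.68 ± 0.22) was lost without control replicate 3, at 0.43. The call in Cd+OP against control (0.53 ± 0.22) was lost in most alternatives, the replicate block and median-of-ratios scaling among them, at 0.28 to 0.57.

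Chromosome 7 held the 3 members with the largest positive interaction. Its run spans 3183290 to 3223373, with 5 members, of which 4 were tested, and all 4 were lower in Cd than in control by log2 fold changes of -4.54 to -3.82. The most abundant, GLYMA_07G039100, was at 25.1, 25.2 and 27.7 FPKM in Cd+OP, 4.0, 4.84 and 4.61 in Cd, 46.0, 50.9 and 47.3 in control+OP, and 76.2, 72.7 and 77.5 in control. The 4 groups did not overlap, and control was the highest. Its change was -4.07 ± 0.08 in Cd against control (16.8-fold lower, edgeR adjusted p = 3.30e-24), 2.46 ± 0.08 in Cd+OP against Cd (5.5-fold higher, edgeR adjusted p = 1.63e-19) and -1.61 ± 0.06 in Cd+OP against control (edgeR adjusted p = 3.93e-17). The Cd+OP level was therefore between those of Cd and control.

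GLYMA_07G038700 followed GLYMA_07G039100 closely, with a ratio of FPKM between 0.609 and 0.742 in all 12 libraries. It was at 16.7, 16.6 and 18.1 FPKM in Cd+OP, 2.97, 3.28 and 2.81 in Cd, 30.7, 33.5 and 31.0 in control+OP, and 51.7, 47.8 and 51.0 in control. Whether the pair divides reads of near-identical copies was not tested. GLYMA_07G038800 was at 4.21, 4.52 and 5.73 FPKM in Cd+OP, 0.705, 1.15 and 1.05 in Cd, 8.49, 9.74 and 8.69 in control+OP, and 23.4, 21.8 and 23.1 in control. It had the largest fall of the run with cadmium (-4.54 ± 0.15, edgeR adjusted p = 2.52e-19) and was also lower in control+OP than in control (-1.34 ± 0.12, edgeR adjusted p = 2.16e-10). GLYMA_07G038600 was at 5.87, 5.95 and 6.90 FPKM in Cd+OP, 1.43, 1.18 and 1.31 in Cd, 19, 19.9 and 16 in control+OP, and 19.5, 17.5 and 19.1 in control. Unlike its 3 tested neighbours it was not called between control+OP and control (-0.02 ± 0.10, edgeR adjusted p = 0.852), where its libraries overlapped. That the neighbours differ from it in this comparison was not tested.

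**Figure D4:**
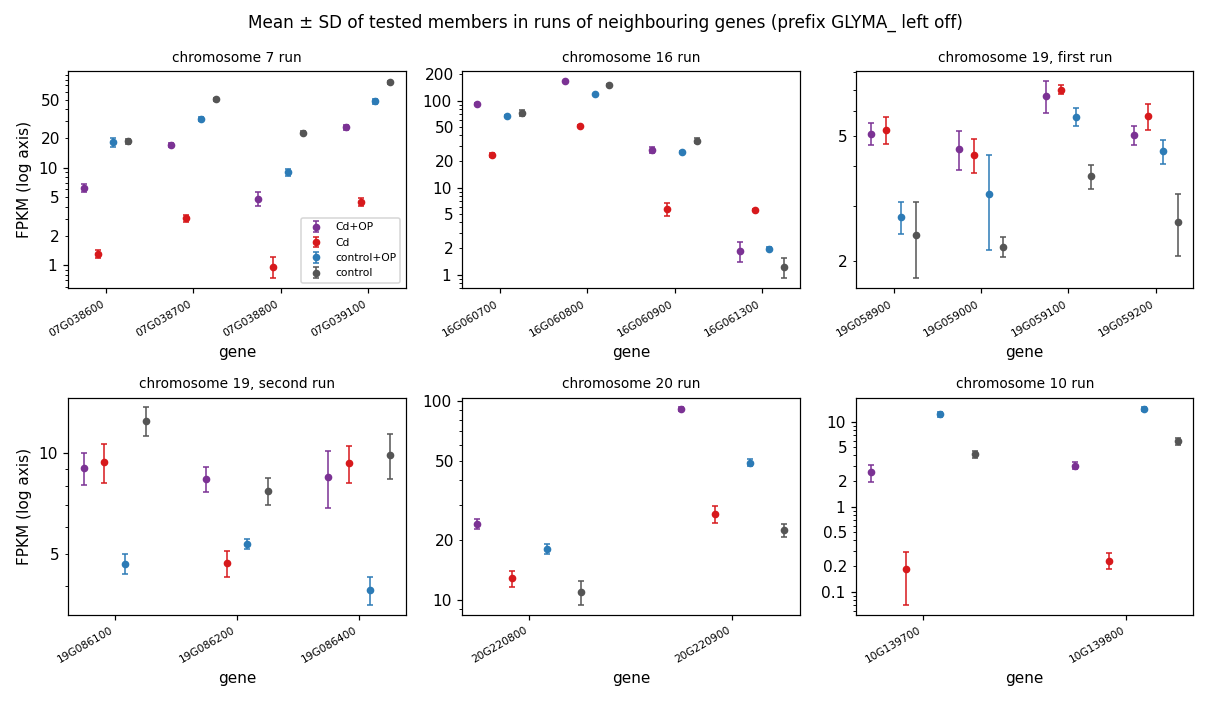
Mean FPKM on a log axis (error bars, SD of 3 libraries) of tested members in 6 runs of neighbouring genes. Cd is the lowest group for all genes of the chromosome 7 run, the highest for GLYMA_16G061300, and close to Cd+OP throughout the first chromosome 19 run.

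On chromosome 20, GLYMA_20G220900 was highest where cadmium and the bacterium met. Its level was 88.9, 90.0 and 92.7 FPKM in Cd+OP, 27.1, 24.3 and 29.5 in Cd, 50.9, 49 and 46.7 in control+OP, and 24.1, 20.8 and 21.9 in control. The groups did not overlap. It was 3.19-fold higher in Cd+OP than in Cd (log2 1.67 ± 0.06, edgeR adjusted p = 1.38e-18), 2.20-fold higher in control+OP than in control (1.14 ± 0.06, edgeR adjusted p = 8.12e-15) and 1.21-fold higher in Cd than in control (0.28 ± 0.06, edgeR adjusted p = 1.85e-04). The interaction was 0.54 ± 0.08 (edgeR adjusted p = 3.32e-06). Its tested neighbour in the run was also higher in Cd+OP than in Cd, by a log2 fold change of 0.84.

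GLYMA_10G168900 on chromosome 10 had the same highest group with a smaller range. It was at 87.4, 84.7 and 89.9 FPKM in Cd+OP, 59.1, 66.2 and 61.0 in Cd, 44.9, 46.6 and 43.6 in control+OP, and 53.9, 46.0 and 49.9 in control. The log2 fold change was 0.88 ± 0.05 in Cd+OP against control+OP (edgeR adjusted p = 7.35e-14) and 0.32 ± 0.05 in Cd against control (edgeR adjusted p = 3.21e-06). Control+OP and control overlapped, and the call between them (-0.14 ± 0.05) was lost without control+OP replicate 1 or 3, at -0.13 and -0.12.

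Some manganese-binding genes responded to the bacterium in roots without cadmium. GLYMA_17G049800 on chromosome 17 was at 2.29, 3.34 and 3.79 FPKM in Cd+OP, 0.399, 0.0616 and 0.835 in Cd, 65.4, 65.1 and 63.3 in control+OP, and 0.768, 0.817 and 0.547 in control. Every control+OP library was far above all others. The change was 6.48 ± 0.23 in control+OP against control (89.0-fold higher, edgeR adjusted p = 3.70e-18) and -4.43 ± 0.19 in Cd+OP against control+OP (edgeR adjusted p = 4.14e-16). It was 2.77 ± 0.29 in Cd+OP against Cd (edgeR adjusted p = 6.02e-09), and 3.64 without Cd replicate 3, the highest of the Cd libraries. Cd against control was not called (-0.73 ± 0.37, edgeR adjusted p = 0.0802), but was called without Cd replicate 3 (-1.65) or without control replicate 3 (-0.92).

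GLYMA_15G176900 was also highest in control+OP, at a lower level, but its Cd+OP libraries overlapped control. It was at 0.503, 0.434 and 0.648 FPKM in Cd+OP, 0.234, 0.138 and 0.193 in Cd, 5.12, 4.43 and 4.69 in control+OP, and 0.715, 0.709 and 0.623 in control. It was 6.91-fold higher in control+OP than in control (log2 2.79 ± 0.21, edgeR adjusted p = 2.10e-11), and it passed the mean of 1 FPKM through the control+OP libraries alone. GLYMA_11G209400 was higher in control than elsewhere, at 2.89, 3.51 and 4.25 FPKM in Cd+OP, 3.06, 2.76 and 1.47 in Cd, 3.14, 2.90 and 4.12 in control+OP, and 10.4, 8.5 and 9.48 in control. It fell by 1.47 on the log2 scale in control+OP (SE 0.20, edgeR adjusted p = 5.19e-07) and by 1.95 in Cd (SE 0.20, edgeR adjusted p = 4.60e-09), both against control.

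**Figure D5:**
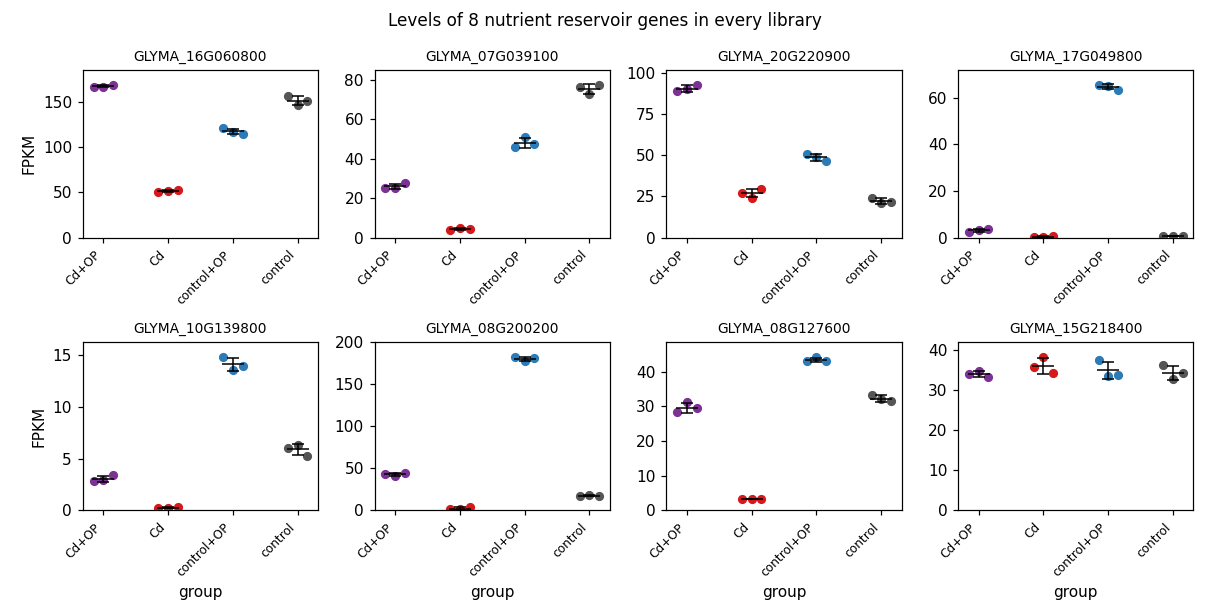
FPKM of 8 members in every library (points), with the mean and SD of each group (bars, n = 3). GLYMA_17G049800 stands at 63.3 to 65.4 FPKM in control+OP and below 4 FPKM elsewhere, while GLYMA_15G218400 lies between 32.6 and 38.1 FPKM in all groups.

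The 2 larger runs on chromosome 19 changed less in Cd against control than the chromosome 7 run. In the first (11368606 to 11469057), all 4 members were tested, and all were higher in Cd than in control, by 0.92 to 1.12 on the log2 scale. None of the 4 was called between Cd+OP and Cd, where the log2 fold changes were -0.27 to -0.01. GLYMA_19G059200 was at 5.33, 4.64 and 5.15 FPKM in Cd+OP, 5.18, 6.24 and 5.92 in Cd, 4.91, 4.33 and 4.16 in control+OP, and 2.15, 2.53 and 3.31 in control. GLYMA_19G058900 was at 4.78, 4.93 and 5.53 FPKM in Cd+OP, 4.72, 5.73 and 5.21 in Cd, 3.14, 2.53 and 2.61 in control+OP, and 2.81, 1.66 and 2.78 in control. The pair rose alike with cadmium, by 1.12 ± 0.17 and 1.11 ± 0.18 (edgeR adjusted p = 1.67e-06 and 5.54e-06).

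In the second run (30653380 to 30722158), 3 of 5 members were tested and all 3 were lower in control+OP than in control, by -1.42 to -0.52. GLYMA_19G086100 was at 9.94, 7.92 and 9.25 FPKM in Cd+OP, 9.27, 10.7 and 8.22 in Cd, 4.62, 5.0 and 4.37 in control+OP, and 13.9, 12 and 11.7 in control. GLYMA_19G086400 was at 7.80, 10.4 and 7.32 FPKM in Cd+OP, 9.46, 10.4 and 8.09 in Cd, 4.13, 4.07 and 3.46 in control+OP, and 8.15, 10.7 and 10.8 in control. Control+OP libraries were below all others in both genes, by 1.42 ± 0.12 and 1.34 ± 0.17 on the log2 scale against control (edgeR adjusted p = 2.08e-10 and 1.23e-07).

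The 8 genes with plasmodesma terms included the steepest fall of any tested member with cadmium. The neighbours GLYMA_10G139700 (chromosome 10, 37334283 to 37335503) and GLYMA_10G139800 (37338285 to 37339737), both on the plus strand, were near 0 in Cd roots. GLYMA_10G139800 was at 2.84, 2.92 and 3.37 FPKM in Cd+OP, 0.238, 0.180 and 0.278 in Cd, 14.8, 13.6 and 14 in control+OP, and 6.04, 6.36 and 5.24 in control. GLYMA_10G139700 was at 3.13, 2.01 and 2.49 FPKM in Cd+OP, 0.0522, 0.239 and 0.256 in Cd, 11.3, 12.5 and 12.7 in control+OP, and 4.52, 3.70 and 4.17 in control. In neither gene did any groups overlap, and control+OP was the highest.

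GLYMA_10G139800 was 24.5-fold lower in Cd than in control (log2 -4.62 ± 0.18, edgeR adjusted p = 1.64e-17) and 12.1-fold higher in Cd+OP than in Cd (3.60 ± 0.19, edgeR adjusted p = 1.07e-14). GLYMA_10G139700 was 21.3-fold lower in Cd than in control (-4.41 ± 0.26, edgeR adjusted p = 7.16e-14) and 12.5-fold higher in Cd+OP than in Cd (3.65 ± 0.27, edgeR adjusted p = 9.39e-12). Its interaction, 2.08 ± 0.34 (edgeR adjusted p = 8.01e-06), was 0.21 and not called with limma on log2(FPKM + 1). With the bacterium but no cadmium the pair was higher than control by 1.56 ± 0.17 and 1.27 ± 0.12, in that order of gene number.

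GLYMA_03G227400 held most of the summed level of the plasmodesma genes. It was at 46.3, 49.6 and 43.9 FPKM in Cd+OP, 22.5, 20.4 and 23.8 in Cd, 57.1, 51.3 and 51.6 in control+OP, and 56.8, 55.7 and 59.4 in control. It was lower in Cd than in control by -1.36 ± 0.06 (edgeR adjusted p = 4.89e-17), and control+OP overlapped control. GLYMA_19G224300 was the exception among the 4 tested. It was at 3.80, 3.31 and 2.94 FPKM in Cd+OP, 4.99, 4.43 and 4.34 in Cd, 7.14, 7.0 and 5.52 in control+OP, and 1.86, 2.25 and 2.45 in control. Control was its lowest group, and it rose by 1.07 ± 0.17 in Cd (edgeR adjusted p = 2.58e-06) and 1.59 ± 0.16 in control+OP (edgeR adjusted p = 5.99e-09). Its rise in Cd+OP over control, 0.55 ± 0.17, was 0.37 and not called without control replicate 1.

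The acid phosphatase group, which holds the vegetative storage type genes, had large changes with both treatments. GLYMA_08G200200 lies on chromosome 8 beside the VSPB gene that was left out, and is annotated with acid phosphatase activity. It was at 43.0, 41.0 and 43.7 FPKM in Cd+OP, 1.06, 1.30 and 3.39 in Cd, 182, 178 and 181 in control+OP, and 16.3, 18.4 and 17.2 in control. The groups did not overlap and stood in the order control+OP, Cd+OP, control and Cd. The bacterium raised it 10.4-fold without cadmium (log2 3.38 ± 0.12, edgeR adjusted p = 2.21e-18) and 21.1-fold with it (4.40 ± 0.16, edgeR adjusted p = 3.23e-18). Cadmium lowered it 8.99-fold without the bacterium (-3.17 ± 0.17, edgeR adjusted p = 7.91e-15) and 4.45-fold with it (-2.16 ± 0.11, edgeR adjusted p = 7.39e-15). Without Cd replicate 3, the highest Cd library, Cd against control was -3.91 and Cd+OP against Cd 5.08. The interaction, 1.01 ± 0.21 (edgeR adjusted p = 1.80e-04), was 1.75 without that library and was not called by DESeq2, at 1.02.

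VSPA (chromosome 7, GLYMA_07G014500), the alpha subunit gene of the vegetative storage protein, had the same order of groups. It was at 6.4, 6.65 and 6.38 FPKM in Cd+OP, 0.133, 0.210 and 0.997 in Cd, 16, 11.6 and 13.8 in control+OP, and 2.77, 2.80 and 1.98 in control. It was 13.5-fold higher in Cd+OP than in Cd (3.76 ± 0.31, edgeR adjusted p = 7.33e-11) and 5.45-fold higher in control+OP than in control (2.45 ± 0.24, edgeR adjusted p = 3.51e-09). In Cd it was lower than in control by -2.47 ± 0.33 (edgeR adjusted p = 2.88e-07). Without Cd replicate 3 these Cd contrasts were 5.09 and -3.86. Its interaction, 1.31 ± 0.41 (edgeR adjusted p = 0.00722), was 2.70 without that library, and was not called by DESeq2 or by limma on log2(FPKM + 1), at 1.32 and 0.35. Reads of VSPA, VSPB and GLYMA_08G200200 may be divided between related copies, so each separate value is uncertain.

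GLYMA_19G167600 was low in Cd roots alone. It was at 8.52, 8.47 and 8.77 FPKM in Cd+OP, 1.15, 0.874 and 0.729 in Cd, 8.83, 8.58 and 7.84 in control+OP, and 7.53, 8.22 and 8.30 in control. The change was -3.11 ± 0.14 in Cd against control (edgeR adjusted p = 4.50e-16) and 3.14 ± 0.14 in Cd+OP against Cd (edgeR adjusted p = 4.66e-16). Cd+OP against control was 0.03 ± 0.12 and not called (edgeR adjusted p = 0.847), and the interaction was 3.07 ± 0.19 (edgeR adjusted p = 2.28e-13).

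Several acid phosphatase genes did not follow this pattern. GLYMA_03G001500 was at 67.1, 62.5 and 61.5 FPKM in Cd+OP, 32, 34.2 and 32.1 in Cd, 36.5, 36.1 and 34.7 in control+OP, and 47.3, 43.8 and 41.2 in control, so it was highest in Cd+OP. It fell by 0.42 on the log2 scale in Cd (SE 0.05, edgeR adjusted p = 3.17e-08) and by 0.30 in control+OP (SE 0.05, edgeR adjusted p = 1.26e-05), both against control, and was 1.38-fold higher in Cd+OP than in control. GLYMA_16G220900 was at 32.7, 35 and 32.9 FPKM in Cd+OP, 27.1, 24.4 and 25.3 in Cd, 16.8, 17.1 and 16 in control+OP, and 26.1, 25.8 and 23.7 in control. Here Cd overlapped control, and control+OP was the lowest group (-0.60 ± 0.06 against control, edgeR adjusted p = 1.12e-09).

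GLYMA_08G231000 was the acid phosphatase gene that rose with cadmium. It was at 5.6, 5.68 and 5.21 FPKM in Cd+OP, 7.19, 7.17 and 6.69 in Cd, 5.66, 6.43 and 5.20 in control+OP, and 4.84, 4.61 and 3.90 in control (Cd against control 0.66 ± 0.12, edgeR adjusted p = 2.71e-05). GLYMA_15G218400 barely moved. It was at 34, 34.8 and 33.2 FPKM in Cd+OP, 35.6, 38.1 and 34.1 in Cd, 37.4, 33.5 and 33.7 in control+OP, and 36.1, 32.6 and 34.3 in control, and all groups overlapped. Its call in Cd+OP against Cd (-0.15 ± 0.05, edgeR adjusted p = 0.0123) was lost under limma, at -0.08 with either pseudocount, and without Cd replicate 2, at -0.11.

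Of the other storage genes, GLYMA_08G127600 on chromosome 8, annotated to the vacuole and protein storage vacuole, was the most abundant. It was at 28.3, 31.1 and 29.4 FPKM in Cd+OP, 3.13, 3.20 and 3.20 in Cd, 43.2, 44.1 and 43.0 in control+OP, and 33.2, 32 and 31.4 in control. Cd libraries were far below control, at -3.33 ± 0.05 (10.1-fold lower, edgeR adjusted p = 1.32e-26), and Cd+OP was 8.85-fold above Cd (3.15 ± 0.05, edgeR adjusted p = 9.87e-26). The interaction was 2.71 ± 0.06 (edgeR adjusted p = 5.27e-22).

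GLYMA_20G120000, with a cell wall term, was high in Cd+OP, at 16.4, 19.5 and 16.5 FPKM, against 7.30, 8.93 and 8.25 in Cd, 7.15, 7.90 and 6.49 in control+OP, and 7.26, 6.24 and 5.61 in control. It was 2.03-fold higher in Cd+OP than in Cd (1.02 ± 0.15, edgeR adjusted p = 1.45e-06). Its small rise in Cd over control (0.36 ± 0.16, edgeR adjusted p = 0.0422) was lost with median-of-ratios scaling, at 0.34, and without any 1 library of Cd or control, at 0.23 to 0.39. GLYMA_05G169100 was highest in control+OP, at 1.33, 1.15 and 1.26 FPKM in Cd+OP, 1.64, 1.66 and 1.68 in Cd, 3.53, 3.02 and 2.90 in control+OP, and 1.99, 1.65 and 1.51 in control. It was lower in Cd+OP than in Cd (-0.49 ± 0.16, edgeR adjusted p = 0.00772) and higher in control+OP than in control (0.88 ± 0.15, edgeR adjusted p = 1.55e-05).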

How the data were processed

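Per the labels' protocols, TRIzol was used to extract total RNA from the roots, and Illumina sequencing gave 12 libraries. The deposited table gives, per gene and library, FPKM and expected counts, both made by the authors, and the expected counts are whole numbers. These deposited counts are not a plain tally of reads, since 10000 values are exactly 4, against 5019 at 3 and 3231 at 5. No source used here names the aligner, the counting tool, the build or the gene models.

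From the counts, edgeR 4.0.16 (R 4.3.3) fitted 1 mean for each of 4 groups to the 12 libraries after TMM scaling. Genes averaging 1 FPKM or more were tested (30340 of 49128), and two-sided p-values were adjusted by Benjamini-Hochberg over all of them, with 0.05 as the threshold. SE is the log2 fold change divided by the square root of F. FPKM as deposited are given as levels. The files turned out to hold counts beside FPKM, which fixed the choice of edgeR over limma.

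Members and lists were chosen with earlier results of these data known, and the split by acid phosphatase and plasmodesma terms followed a look at the annotation. Named genes are the 10 most abundant members, the 4 highest and 4 lowest called log2 fold changes per comparison among members whose groups do not overlap, and members with a symbol (33 in all). For the interaction the condition on overlap was not applied. VSPB was left out. The fit did not pair libraries by replicate number. Same-numbered deviations correlated at -0.01398 to 0.08536, and 10 of 12 libraries correlated best with their own number. Intervals from counts would cover counting error only.

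Alternatives were no filter, a mean of at least 5 FPKM, median-of-ratios scaling, DESeq2 1.42.0, limma 3.58.1 on log2(FPKM + 1) and log2(FPKM + 0.1), counts divided by 4, a replicate block, and leaving out each library.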

Additional observations from a re-analysis of the deposited data

Results flagged for a closer look

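For these genes the change with cadmium differed between roots with and without the bacterium by the test of the difference itself (interaction in edgeR, log2 scale, cadmium change with OP minus cadmium change without it). The members with the highest interaction were GLYMA_07G038800 at 3.57, GLYMA_07G039100 at 3.10, GLYMA_07G038700 at 3.08 and GLYMA_19G167600 at 3.07. Cadmium lowered the 3 chromosome 7 genes by log2 fold changes of -0.97, -0.96 and -0.96 with OP, and by -4.54, -4.07 and -4.05 without it, in the order just given. GLYMA_19G167600 changed by -0.04 (not called) with OP and by -3.11 without it.

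The members with the lowest interaction were GLYMA_17G049800 at -3.70, GLYMA_16G061300 at -2.31, GLYMA_19G224300 at -2.11 and GLYMA_15G176900 at -1.42. GLYMA_17G049800 changed with cadmium by -4.43 with OP and by -0.73 (not called) without it, and its interaction was -2.78 without Cd replicate 3. GLYMA_19G224300 changed by -1.04 with OP and by 1.07 without it. GLYMA_15G176900 passed the mean of 1 FPKM through its control+OP libraries alone, the group that also sets its interaction, so its value is a description. GLYMA_16G061300 changed by -0.15 (not called) with OP and by 2.16 without it. Over the 44 tested members the interaction was called positive for 29 and negative for 10, beside 33.4% and 30.4% of all tested genes. All groups had 3 libraries, too few for a search for single outlying libraries.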

How the results depend on the processing

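The counts of members called depended most on which members were tested. With a mean of at least 5 FPKM, 30 members were tested, and 6 (14 in the analysis as reported) were higher in Cd than in control, 2 (5) lower in Cd+OP than in Cd, 12 (22) higher in control+OP than in control, 12 (20) higher in Cd+OP than in control, and 4 (10) negative in the interaction. With no filter 8 were lower in Cd+OP than in Cd. Fewer or more members tested is part of these settings. The other 234 counts under the alternatives were within 1.5 times. Single-gene results were compared for the 30 named members that were tested. Among those called in the reported fit or in the alternative, none changed direction. Turns of sign among results called in neither were not counted. The balance of counts did turn in Cd+OP against control, where 14 to 18 members were lower under the alternatives. The 12 higher at a mean of at least 5 FPKM were fewer than that. In control+OP against control 12 to 14 were lower under the alternatives, so the surplus of higher members was lost at that filter. Of single-gene results 3452 kept their side of the threshold, 80 lost it and 20 gained it.

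Leaving out each library in turn gave 11 to 14 higher and 25 to 26 lower in Cd against control, 29 to 30 and 4 to 5 in Cd+OP against Cd, 18 to 22 and 12 to 14 in control+OP against control, 12 to 14 and 19 in Cd+OP against control+OP, 17 to 19 and 16 to 18 in Cd+OP against control, and 29 and 8 to 11 in the interaction.

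The reported fit did not pair libraries by replicate number, although 10 of 12 correlated best with their own number, a hint from the data and not the design. With the replicate block the counts higher and lower were 14 and 25, 29 and 5, 22 and 13, 13 and 19, 18 and 17, and 29 and 10, in the same order of comparisons.

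Precision is limited by 3 libraries per group. After division of the counts by 4, chi-square per gene within a group had a median of 0.543 to 0.618, and sampling alone gives 0.455. The value scales with the divisor, which no source states, so the spread beyond sampling could not be judged from it. No label ties the libraries to separate plants, so the tests say little of variation between plants.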
